A study of Mus musculus with 2 samples.

Results

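Hox genes encode homeodomain transcription factors. All 39 mouse Hox genes of the expression table, of 42392 genes in all, were taken by symbol, as Hox followed by the cluster letter a, b, c or d and a paralog number. The numbers run from 1 to 13, and genes of the same number in different clusters are paralogs. The study sequenced mRNA of hair follicle stem cells from female mice in 2 samples, 1 in anagen II-III, the early growth phase of the follicle, and 1 in telogen, its resting phase. Both samples are titled controls, and both groups share the genotype K15-CrePGR; Shh+/- and treatment with RU486 for 8 days. The K15-CrePGR transgene is named for keratin 15, a keratin of the follicle bulge, and for a Cre recombinase joined to the progesterone receptor, which RU486 activates. The labels name no floxed allele, no age and no number of animals. Cells were kept for high integrin alpha 6 and for CD34, and cells carrying SCA1, CD140a, CD117, CD31 or CD45 were removed. The levels below are TPM, a transcript abundance scaled by gene length and library total, of the anagen II-III library. The telogen library was not analysed here, because no column of the table carries a name that belongs to it alone. With 1 library there is no replicate spread, so no value carries an error, no test was possible, and every order of levels is that of this library. TPM keeps no read depth, so values carry no counting interval, and a gene at 0 is said to be listed at 0.

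In the mouse the Hox genes lie in 4 clusters, on chromosomes 6 (Hoxa), 11 (Hoxb), 15 (Hoxc) and 2 (Hoxd). Within a cluster the genes stand in the order of their numbers, and in the embryo low-numbered genes act toward the head and high-numbered genes toward the tail. Cells of adult tissues can keep part of this code, and human skin fibroblasts are known to carry HOX patterns that differ by body site. Hoxc13 stands apart in skin, since it is required for hair and nail formation.

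The anagen library carried the whole middle of the Hox series, some genes on either side and 1 from its far end. All 15 central genes, with paralog numbers 4 to 8, were at 1 TPM or more, against 4 of 8 anterior genes (numbers 1 to 3) and 3 of 16 posterior genes (numbers 9 to 13). Every gene of paralog numbers 10, 11 and 12 was under 1 TPM. The highest Hox gene was the posterior gene Hoxc13 at 40.0 TPM, followed by Hoxc8 at 35.4 TPM and Hoxa7 at 33.4 TPM. Over all clusters 22 of 39 Hox genes, or 56.4%, reached 1 TPM. The share among all 20782 nuclear protein-coding genes was 56.0%, and it was 34.1% among all genes, so the total count does not set the family apart from other protein-coding genes. Hox genes at 20 TPM or more numbered 7, and 19.9% of protein-coding genes reached that level. The members listed at 0 also numbered 7, beside 20.3% of protein-coding genes. The median over all 39 Hox genes was 3.40 TPM, and that over the protein-coding genes 2.42 TPM. The lowest member above the 1 TPM line was Hoxa4 at 2.34 TPM, and Hoxc9 at 0.583 TPM was among the nearest below it.

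**Figure D1:**
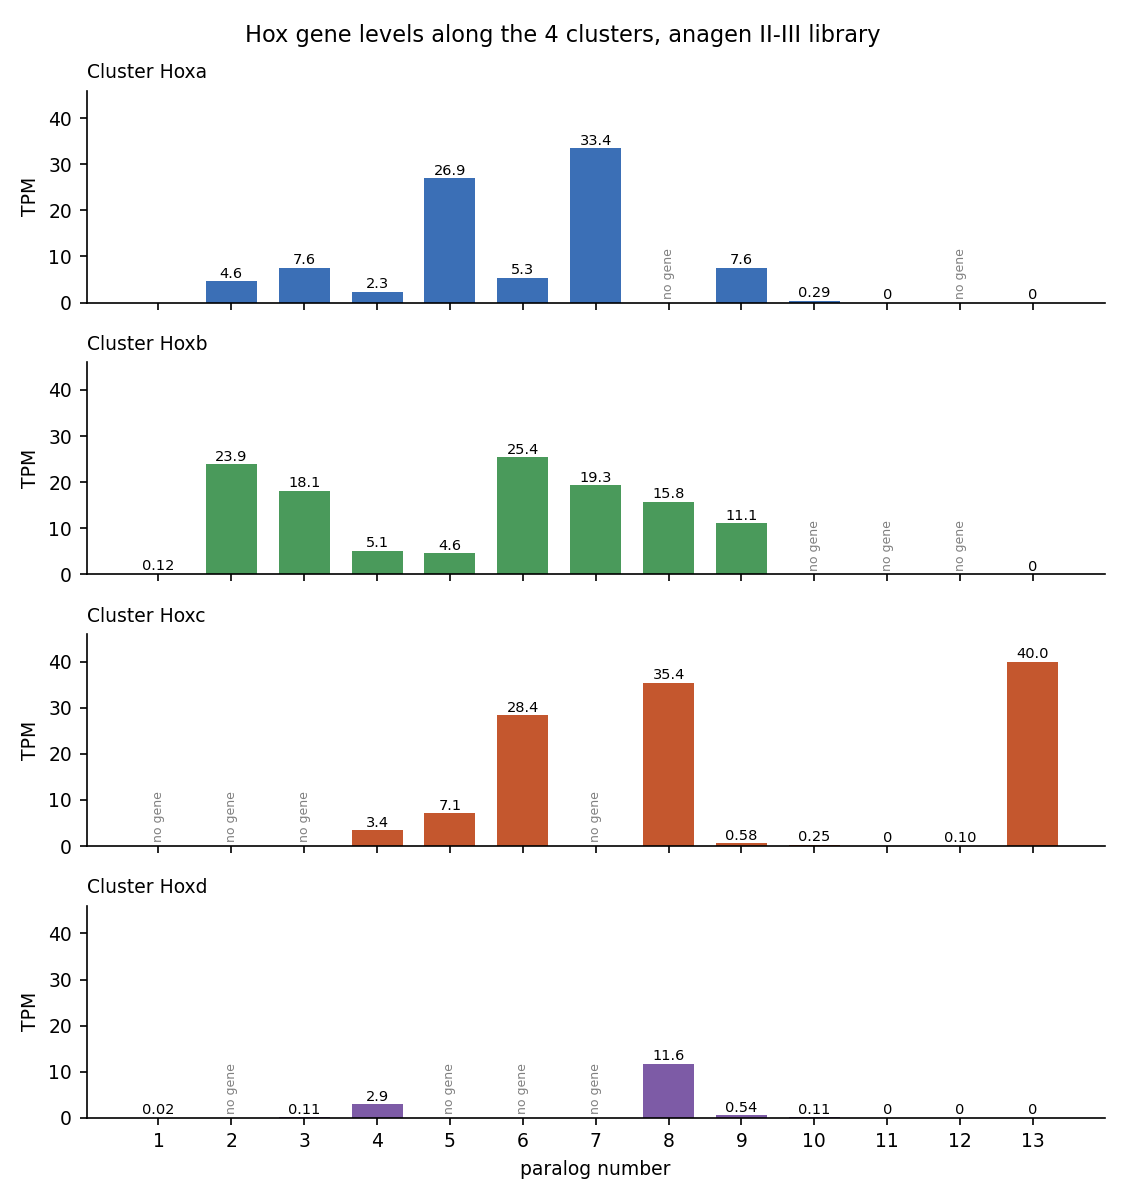
Level of 38 Hox genes in the anagen II-III library, in TPM on a linear axis, by paralog number within each cluster; the number over each bar is its value, and "no gene" marks numbers that a cluster lacks in the mouse and a blank a gene that is not reported. Filled stretches run over numbers 2 to 9 in Hoxa and Hoxb and 4 to 8 in Hoxc, Hoxd8 leads its cluster at 11.6 TPM, and Hoxc13 stands alone at 40.0 TPM.

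The promoters at the posterior edges of expression are shown because neighbouring genes there lie on either side of 1 TPM. RefSeq windows of build GRCm38.p6, from 250 bases before to 50 bases after a start, were found for 22 of the 39 genes. Hoxc13, Hoxc8, Hoxc6, Hoxb6 and Hoxb2, which are among the 7 Hox genes at 20 TPM or more, had no window. Hoxa9 at 7.59 TPM was the last gene of its cluster above 1 TPM, and Hoxa10 followed at 0.293 TPM. Hoxa13, listed at 0, is shown as well, although it lies at the end of the cluster and not at this edge. In the Hoxd cluster, Hoxd8 at 11.6 TPM was followed by Hoxd9 at 0.544 TPM. CG dinucleotides, the sites of DNA methylation, are in capitals. Hoxa10 has a second window, which is not shown and held 12 of them. The window of Hoxa11, which lies between Hoxa10 and Hoxa13 and was listed at 0, is not shown either and held 15.
Hoxa9, chr6:52227321-52227620, strand -: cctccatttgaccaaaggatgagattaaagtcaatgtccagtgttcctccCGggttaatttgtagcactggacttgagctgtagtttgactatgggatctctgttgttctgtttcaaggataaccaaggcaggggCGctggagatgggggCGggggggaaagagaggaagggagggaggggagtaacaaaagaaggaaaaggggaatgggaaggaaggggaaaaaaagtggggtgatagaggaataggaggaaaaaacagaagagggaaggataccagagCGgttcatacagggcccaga
Hoxa10, chr6:52234890-52235189, strand -: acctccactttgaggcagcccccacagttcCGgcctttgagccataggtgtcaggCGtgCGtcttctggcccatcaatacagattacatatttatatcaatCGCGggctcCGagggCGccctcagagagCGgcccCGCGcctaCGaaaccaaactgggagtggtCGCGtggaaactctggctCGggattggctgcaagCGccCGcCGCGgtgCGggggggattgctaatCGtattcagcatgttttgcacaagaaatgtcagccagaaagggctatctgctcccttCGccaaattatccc
Hoxa13, chr6:52260831-52261130, strand -: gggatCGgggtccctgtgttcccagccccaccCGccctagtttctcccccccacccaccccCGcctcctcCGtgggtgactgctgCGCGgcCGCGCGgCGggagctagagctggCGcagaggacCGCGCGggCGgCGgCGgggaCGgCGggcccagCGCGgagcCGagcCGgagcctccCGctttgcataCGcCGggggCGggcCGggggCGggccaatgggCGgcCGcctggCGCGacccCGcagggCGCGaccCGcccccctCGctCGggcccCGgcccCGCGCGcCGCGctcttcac
Hoxd8, chr2:74704365-74704664, strand +: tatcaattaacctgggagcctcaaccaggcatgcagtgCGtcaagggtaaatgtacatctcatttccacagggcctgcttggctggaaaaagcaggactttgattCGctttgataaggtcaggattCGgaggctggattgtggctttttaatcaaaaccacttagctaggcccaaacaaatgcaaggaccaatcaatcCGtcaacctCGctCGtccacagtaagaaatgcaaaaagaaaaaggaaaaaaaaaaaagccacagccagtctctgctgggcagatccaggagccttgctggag
Hoxd9, chr2:74697513-74697812, strand +: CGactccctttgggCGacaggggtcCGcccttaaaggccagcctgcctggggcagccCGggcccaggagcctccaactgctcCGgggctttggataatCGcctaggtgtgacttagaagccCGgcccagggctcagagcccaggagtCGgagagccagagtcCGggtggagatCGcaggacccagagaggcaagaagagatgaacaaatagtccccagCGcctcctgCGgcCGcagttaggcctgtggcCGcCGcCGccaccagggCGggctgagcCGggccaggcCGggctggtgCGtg
The Hoxa9 and Hoxd8 windows held 4 and 6 CG dinucleotides, while those shown for Hoxa10, Hoxa13 and Hoxd9 held 21, 45 and 20. Over the 11 windows of Hox genes at 1 TPM or more the median was 9, and over the 13 windows of Hox genes under 1 TPM it was 20. The highest Hox genes, Hoxc13 and Hoxc8, had no window and are not in these medians. The median of all 32851 windows of the table was 7. The ranges of the Hox windows overlapped, from 4 to 29 at 1 TPM or more and from 4 to 45 under it, and Hoxa5, at 26.9 TPM, had 29. DNA methylation was not measured, and its part in these levels was not tested. The letters TGATTNAT, a form of the joint Pbx and Hox site, were found on either strand in 2 of 24 Hox windows, those of Hoxa2 and of a Hoxd11 start, and in 3.22% of all windows. AGGTCA, a nuclear receptor half-site, was in 7 of 24 Hox windows and in 16.3% of all windows. TATAAA was in 4 of 24 Hox windows and in 13.6% of all windows.

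Hoxc13 is a regulator of hair shaft keratins and the only Hox gene above 1 TPM beyond paralog number 9. Hoxc13 (ENSMUSG00000001655, chromosome 15, 102921131 to 102928814) stood at 40.0 TPM and held 11.7% of all Hox TPM. Its level was above that of 89.7% of protein-coding genes. The next gene of the cluster, Hoxc12, lies 8.01 kb away and stood at 0.104 TPM, which puts Hoxc13 at 384-fold its neighbour. Values under 1 TPM may rest on few fragments, so the size of this and other ratios to such values is uncertain. Hoxc11, which acts in hindlimb and posterior body patterning, was listed at 0. Hoxc10 and Hoxc9, which help to specify lumbar and thoracic motor neurons, stood at 0.245 and 0.583 TPM. The quiet stretch between Hoxc13 and Hoxc8 measures 61.7 kb and holds 4 Hox genes, none at 1 TPM. The other genes of number 13, Hoxa13, Hoxb13 and Hoxd13, which pattern digits, tail and the urogenital tract, were all listed at 0. Hoxc13 was thus the whole of the level of its paralog number in this library.

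Genes of the hair shaft that are linked to Hoxc13 were lower than Hoxc13 itself. Of 12 listed, 11 were found in the table, all of them under the level of Hoxc13, and the median over the 11 was 2.89 TPM. Of the 11, 8 reached 1 TPM, a level that 56.0% of all protein-coding genes reached. Krt35, a hair cortex keratin, stood at 28.7 TPM, Padi3, an enzyme that converts arginine to citrulline in hair proteins, at 14.4 TPM, Krt32 at 4.74 TPM and Krt31 at 4.62 TPM. Dsg4, a desmosomal cadherin of the hair shaft, and the keratin Krt34 were lowest at 0.555 and 0.409 TPM. The forkhead gene Foxn1, whose loss gives the nude mouse, stood at 1.505 TPM and Foxq1, the gene of the satin mouse coat, at 2.89 TPM; both are known to depend on Hoxc13. Hoxc13 was 26.6-fold above Foxn1. Krt85 was not analysed here. Markers of the hair matrix and inner root sheath were present beside Hoxc13. All 10 of them were at 1 TPM or more and they summed to 221 TPM, from Krt71 at 51.3 TPM down to Foxn1. The part of such cells in the Hoxc13 level was not tested. In a bulk library, fewer cells of a type and less RNA per cell cannot be told apart.

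The rest of the Hoxc cluster was expressed from Hoxc4 to Hoxc8. Hoxc8 (chromosome 15, 102990539 to 102994275), which patterns the thoracic vertebrae and the motor neurons of the forelimb, stood at 35.4 TPM, 60.8-fold above the adjacent Hoxc9. Hoxc6, a gene of the thoracic region, stood at 28.4 TPM. Hoxc5 and Hoxc4, which belong to the cervical and upper thoracic region, were lower, at 7.10 and 3.40 TPM. Levels thus stepped down toward the anterior end, Hoxc6 being 3.99-fold above Hoxc5. The cluster summed to 115 TPM, or 33.6% of all Hox TPM, and Hoxc13 made up 34.7% of that sum.

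The Hoxb cluster had the largest sum and the longest run of expressed genes. All 8 genes from Hoxb2 to Hoxb9 were between 4.57 and 25.4 TPM, while Hoxb1 stood at 0.115 TPM and Hoxb13 was listed at 0. The sum over the 10 genes of the cluster was 123 TPM, or 36.0% of all Hox TPM, beside 115 TPM over the 9 genes of Hoxc. Hoxb6, a gene of the thoracic region, was highest at 25.4 TPM. Hoxb2, which patterns the hindbrain and facial nerve, followed at 23.9 TPM and was 207-fold above the adjacent Hoxb1, an early hindbrain gene. Hoxb7 stood at 19.3 TPM, Hoxb3 at 18.1 TPM and Hoxb8, whose loss in mice causes excessive grooming, at 15.8 TPM. Hoxb9, which acts in rib patterning, stood at 11.1 TPM. Hoxb4, known for expanding blood stem cells when raised, and Hoxb5 formed a dip in the middle of the run, at 5.06 and 4.57 TPM.

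The Hoxa cluster rested on a pair of central genes. Hoxa7 stood at 33.4 TPM and Hoxa5, which acts in lung and cervicothoracic development, at 26.9 TPM, and together they exceeded the sum of the other 9 genes of the cluster. Hoxa6, which lies between them, was lower at 5.28 TPM, so that Hoxa7 was 6.33-fold above it. Hoxa9, a gene of blood progenitors and of leukaemia, stood at 7.59 TPM and Hoxa3, which is required for the thymus and parathyroid, at 7.55 TPM. Hoxa2, the selector gene of the second branchial arch, stood at 4.63 TPM and Hoxa4 at 2.34 TPM. Hoxa10, which acts in the uterus and lumbar region, stood at 0.293 TPM, 25.9-fold below Hoxa9. Hoxa11, a gene of the forearm and uterus, was listed at 0. The cluster summed to 88.7 TPM, or 25.9% of all Hox TPM.

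The Hoxd cluster was low apart from a pair of genes. Hoxd8 stood at 11.6 TPM and Hoxd4 at 2.90 TPM, and the cluster summed to 15.3 TPM, or 4.47% of all Hox TPM. Hoxd8 alone made up 76.0% of that sum. The genes beside them, Hoxd9 and Hoxd3, stood at 0.544 and 0.105 TPM. Hoxd1 was at 0.0202 TPM and Hoxd10, a gene of lumbar motor neurons, at 0.114 TPM. The posterior genes Hoxd11, Hoxd12 and Hoxd13, which act in the limbs and digits, were listed at 0.

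Read across clusters, the summed level was highest at the middle paralog numbers. The summed levels were 28.5 TPM for number 2 and 25.8 TPM for number 3. Number 4 was lower at 13.7 TPM, although all 4 of its genes were above 1 TPM, from Hoxa4 at 2.34 to Hoxb4 at 5.06 TPM. Numbers 5, 6, 7 and 8 summed to 38.6, 59.0, 52.8 and 62.8 TPM, over 3, 3, 2 and 3 genes. These sums depend on how many genes a number has. By median over its genes, number 7 was highest at 26.4 TPM, beside 25.4 TPM for number 6 and 15.8 TPM for number 8. The 8 genes of numbers 6 to 8, which belong to the thoracic region of the trunk, held 51.0% of all Hox TPM. Number 9 summed to 19.8 TPM, and numbers 10, 11 and 12 together to 0.757 TPM over 8 genes. The 40.0 TPM of Hoxc13 then stood alone at number 13. By class, the 15 central genes held 66.2% of all Hox TPM, the 16 posterior genes 17.7% and the 8 anterior genes 16.1%. The median over the genes of each class was 11.6, 0.109 and 2.66 TPM in the same order. With the highest member of each class left out, Hoxc13 among them, the posterior share was 8.44%.

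**Figure D2:**
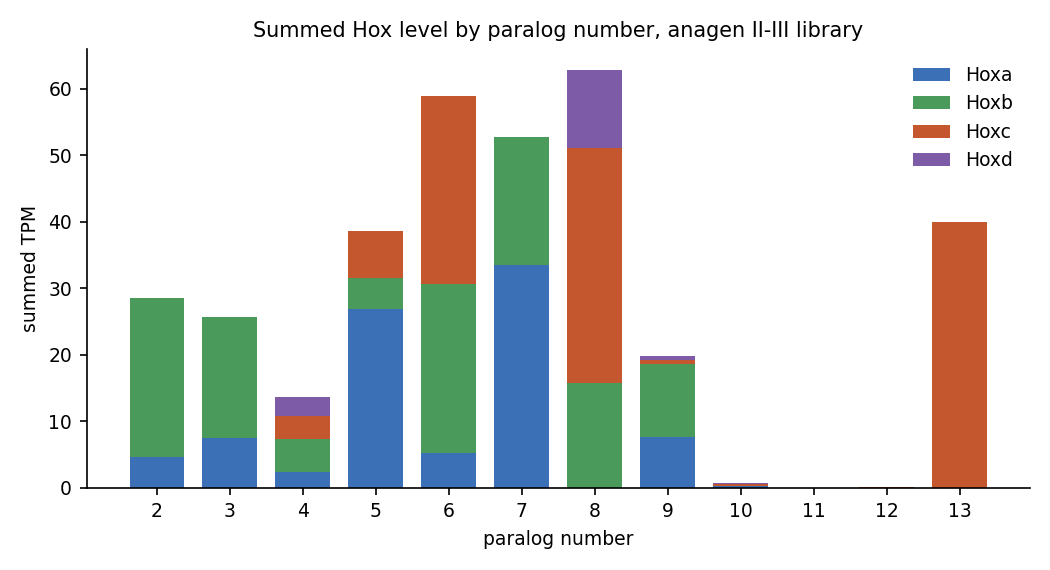
Summed TPM of the Hox genes of paralog numbers 2 to 13 in the anagen II-III library, on a linear axis, stacked by cluster. The stacks are highest at numbers 6 and 8, at 59.0 and 62.8 TPM, nearly empty from 10 to 12, and made of Hoxc13 alone at number 13. Number 7 has 2 genes, and numbers 6 and 8 have 3 each.

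Paralogs of the same number did not share a level, and no cluster led throughout. Hoxb led at numbers 2, 3, 4 and 9, Hoxc at 6, 8 and 13, and Hoxa at 5 and 7. At numbers 10 and 12 the highest genes, Hoxa10 at 0.293 TPM and Hoxc12 at 0.104 TPM, were under 1 TPM. Among the closest paralogs were Hoxc6 and Hoxb6, with a ratio of 1.12, while Hoxa6 was 5.37-fold below Hoxc6. Hoxa5 was 5.90-fold above Hoxb5 and 3.79-fold above Hoxc5. At number 8, Hoxc8 was 2.24-fold above Hoxb8 and 3.04-fold above Hoxd8. At number 9, Hoxb9 and Hoxa9 differed by 1.46-fold, and Hoxb9 was 19.0-fold above Hoxc9. At number 3, Hoxb3 was 172-fold above Hoxd3, which stood at only 0.105 TPM. Whether ratios of this size exceed the spread between animals could not be tested.

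Against all other protein-coding genes, the expressed Hox genes were of middling level. The 22 members at 1 TPM or more had a median of 11.4 TPM, beside 12.5 TPM for the 11633 protein-coding genes at that level. Only 10 of the 22 were above the midpoint of those 11633 genes. Hoxc13 exceeded 81.7% of them, Hoxc8 78.8% and Hoxa7 77.6%. Hoxa4, the lowest of the 22, exceeded 10.2%. Since these members were kept by the same 1 TPM line, their median describes them only.

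**Figure D3:**
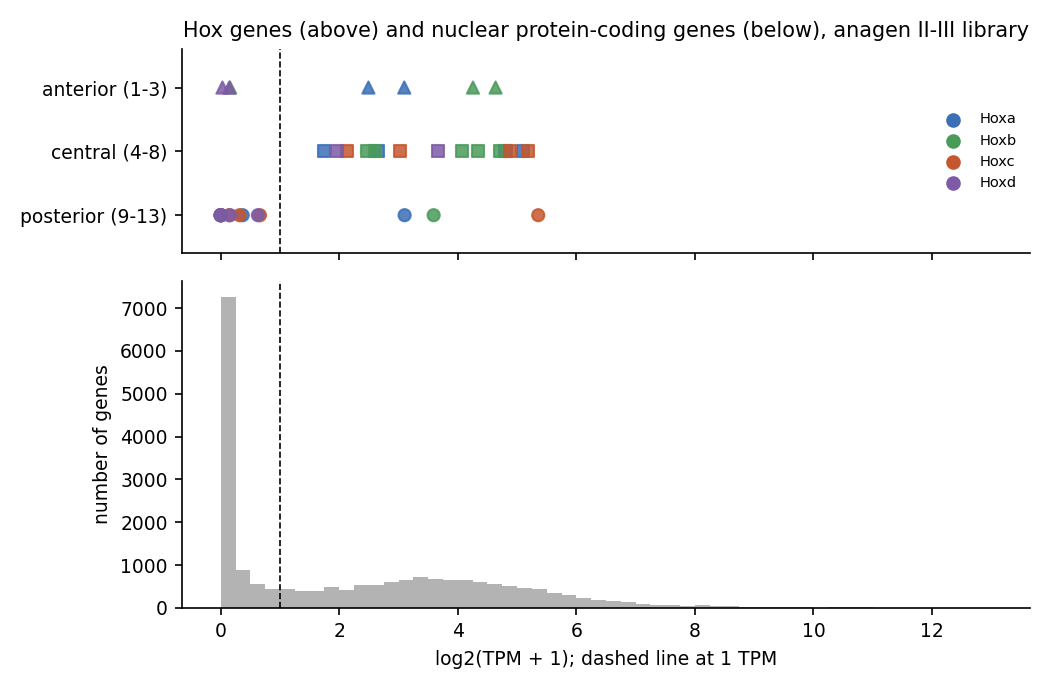
Levels as log2(TPM + 1) in the anagen II-III library: above, Hox genes by paralog class, coloured by cluster; below, a histogram of 20782 nuclear protein-coding genes. The central genes all lie right of the dashed 1 TPM line, 13 of 16 posterior genes lie left of it, and Hoxc13 is the rightmost point.

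Annotated spans overlap in these clusters, which limits single values. By RefSeq positions, 10 Hox genes overlap another Hox gene, and 7 of these were among the 22 at 1 TPM or more. Hoxa3 spans Hoxa4, Hoxa5 and Hoxa6, Hoxb3 spans Hoxb4, and Hoxd3 spans Hoxd4. The labels do not say that reads were counted by strand. The split of reads within these groups, and between 12 Hox genes and the noncoding genes that overlap them, is therefore uncertain. The pairs with the sharpest contrast, Hoxc13 against Hoxc12 and Hoxb2 against Hoxb1, do not overlap each other. Hoxb2 is, however, among the 12, since it shares 1763 bases with the noncoding gene Hoxb3os, at 4.09 TPM.

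A pair of long noncoding RNA genes of the clusters stood in the range of the highest Hox genes. The gene ID that the table assigns to both Hotairm1 and Hotairm2 stood at 49.7 TPM. Hotairm1 is known as a retinoic acid responsive transcript of human myeloid cells. Its level was 10.7-fold that of Hoxa2, the gene on its posterior side. Hoxb5os, which overlaps Hoxb5 and Hoxb6, stood at 31.2 TPM, 6.82-fold above Hoxb5 and 1.23-fold above Hoxb6. The gene ID that the table assigns to both Hoxaas3 and LOC115490409 stood at 5.81 TPM, Hoxd3os1 at 5.42 TPM, Hoxb3os at 4.09 TPM and Hoxaas2 at 3.24 TPM. Hoxd3os1 was 51.4-fold above Hoxd3, which it overlaps. The other 4 listed long noncoding RNA genes were under 1 TPM. Hotair, which lies between Hoxc11 and Hoxc12 and is known for binding Polycomb complexes in human cells, stood at 0.00927 TPM. Hottip, beside Hoxa13, was listed at 0, and Hoxa11os stood at 0.0256 TPM. Haglr, at the anterior end beside Hoxd1, stood at 0.0887 TPM. Without strand, reads of such an RNA gene and of the Hox gene it overlaps cannot be told apart.

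**Figure D4:**
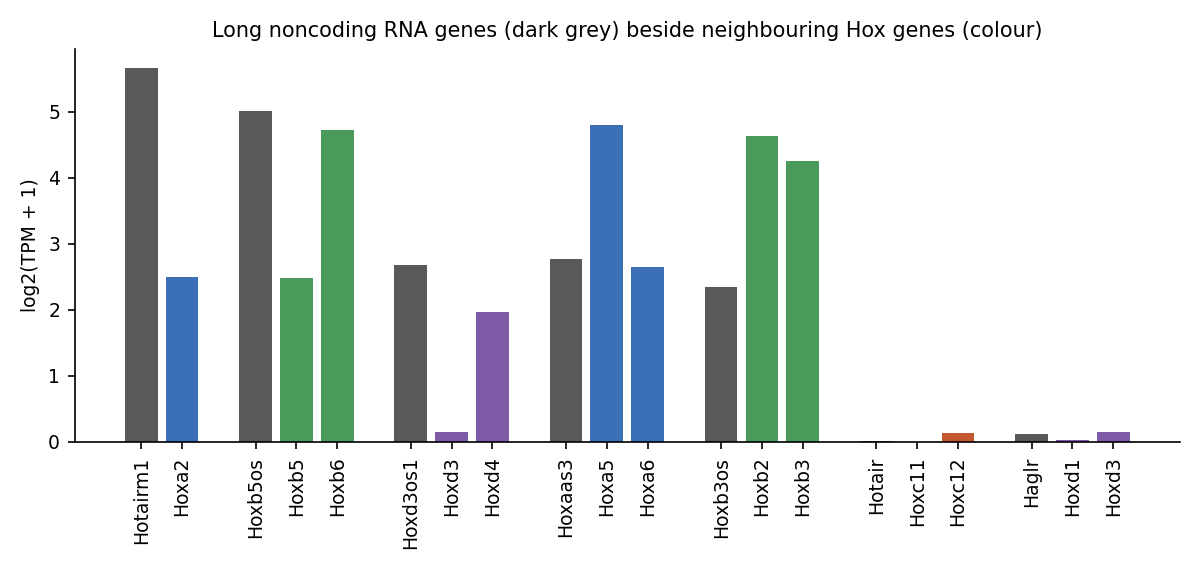
Levels as log2(TPM + 1) of 7 long noncoding RNA genes, in dark grey, each beside Hox genes next to it or overlapping it, coloured by cluster, in the anagen II-III library. Hotairm1 and Hoxb5os, at 49.7 and 31.2 TPM, are higher than their neighbours, and Hotair and Haglr stand with neighbours that are near 0.

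The Hox clusters also hold microRNA genes of the miR-10, miR-196 and miR-615 families, which are known to lower Hox transcripts in the case of miR-196. Their mature sequences are shown because the miR-196 genes, of a single seed, were listed at such different values. The seed, bases 2 to 8, is in capitals, and positions are those of RefSeq on GRCm38.p6.
mmu-miR-196a-5p, chr11:96265187-96265208, strand +: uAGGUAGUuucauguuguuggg
mmu-miR-196b-5p, chr6:52230129-52230150, strand -: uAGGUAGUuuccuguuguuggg
mmu-miR-10a-5p, chr11:96317186-96317208, strand +: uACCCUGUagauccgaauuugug
mmu-miR-10b-5p, chr2:74726074-74726096, strand +: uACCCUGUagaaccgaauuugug
Counted from the 5′ end, miR-196a-5p and miR-196b-5p differ by A12C, and miR-10a-5p and miR-10b-5p by U12A, both outside the seed. Mir196a-1, near Hoxb9, was at 68.9 TPM, while Mir196a-2, which gives the same mature miR-196a-5p, and Mir196b were listed at 0. Mir10a, Mir10b and Mir615 were listed at 0 as well. The hairpin of Mir196a-1 is 102 bases long. TPM divides by length, so few fragments on so short a feature give a high value, and their number is not known. An mRNA library does not measure mature microRNAs, so none of these values is a level of miR-196 or miR-10.

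Cofactors that bind DNA together with Hox proteins ranged from 0.230 to 33.3 TPM. Of the 9 genes of the TALE class, homeodomain proteins named for an insert in that domain, 6 reached 1 TPM, a share near the 56.0% of all protein-coding genes. Among the Pbx genes, Pbx2 stood at 33.3 TPM, Pbx3 at 11.4 TPM and Pbx4 at 1.02 TPM. Pknox1 stood at 14.9 TPM and Meis1 at 7.58 TPM. Meis2, Meis3 and Pknox2 were under 1 TPM, at 0.633, 0.552 and 0.230 TPM. At least 1 member of each of the Pbx, Meis and Pknox families was thus above 1 TPM.

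The upstream regulators ranged widely. The Cdx genes, which switch on central Hox genes in the embryo, were at or near 0. Cdx1 and Cdx2 were listed at 0 and Cdx4 stood at 0.0095 TPM. The retinoic acid receptor genes, which control anterior Hox genes in the embryo, stood at 101 TPM for Rarg, 19.0 TPM for Rara and 1.46 TPM for Rarb. Gmnn, whose product geminin binds Hox proteins and Polycomb, stood at 22.7 TPM. Of the chromatin regulators that hold Hox genes off or on, all 19 Polycomb genes and all 11 trithorax or H3K27 demethylase genes reached 1 TPM, with medians of 17.0 and 23.7 TPM. Among all protein-coding genes 56.0% reached that level. Phc2 at 71.2 TPM, Cbx6 at 38.1 TPM, Pcgf2 at 31.5 TPM and the methyltransferase gene Ezh2 at 30.9 TPM led the Polycomb list, with Phc3 at 4.80 TPM and Phc1 at 1.91 TPM lowest. Dpy30 at 42.5 TPM, Psip1 at 38.3 TPM, Men1 at 33.7 TPM and Ash2l at 24.3 TPM led the other list, with the H3K4 methyltransferase gene Kmt2a at 6.87 TPM and Ash1l at 6.82 TPM lowest.

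**Figure D5:**
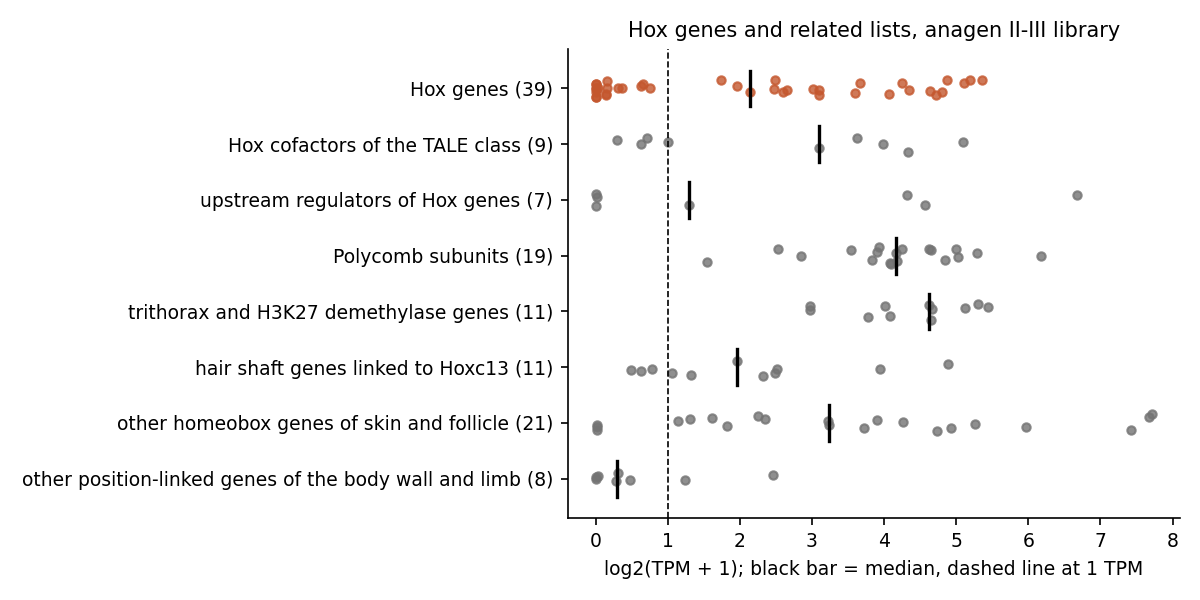
Levels as log2(TPM + 1) of the 39 Hox genes, in orange, and of 7 related lists, in grey, in the anagen II-III library; each point is a gene, spread vertically for visibility, the black bar is the median and the dashed line marks 1 TPM. The Hox genes split on either side of the line, while every Polycomb and trithorax gene lies right of it. Of all protein-coding genes, 56.0% reached 1 TPM.

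Some other homeobox genes of skin reached higher levels than any Hox gene, while most of those listed were below Hoxc13. Of 21 listed, 18 were at 1 TPM or more, beside 56.0% of all protein-coding genes, and the median over all 21 was 8.39 TPM. Irx2, of the Iroquois family, stood at 209 TPM, Barx2 at 204 TPM, Lhx2, which holds bulge stem cells in their state, at 171 TPM and Irx4 at 61.5 TPM. Irx6 was lowest at 0.013 TPM. Lhx2 was 4.27-fold above Hoxc13.

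Markers of the sorted cells and of other skin cells were measured beside the Hox genes. All 10 genes of the bulge marker list were at 16.1 TPM or more, led by Krt5 and Krt15 at 3833 and 3364 TPM. The lowest, Nfatc1, was above 76.2% of protein-coding genes. The list holds Itga6 and Cd34, whose proteins were used to sort the cells. It also holds Krt5 and Krt14, which are not particular to the bulge. Of 12 fibroblast and dermal papilla markers, 11 reached 1 TPM, beside 56.0% of all protein-coding genes, and all 12 summed to 914 TPM. Of this sum the 8 genes other than collagens made up 94.8 TPM. Dermal fibroblasts are known to express Hox genes, and the dermal gene Prrx1, a homeobox gene, stood at 2.07 TPM. Of 6 melanocyte markers 5 reached 1 TPM and the list summed to 44.8 TPM. For 6 leukocyte markers these values were 4 and 30.6 TPM, for 6 endothelial markers 3 and 10.03 TPM, and for 6 muscle and pericyte markers 2 and 42.4 TPM, of which Cspg4 held 38.6 TPM and Myod1 was listed at 0. The part of these cells in the Hox levels was not tested.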

How the data were processed

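RNA-seq levels of the anagen II-III library were analysed. The deposited values are TPM per gene, as the file headers say. The authors used Bowtie2 2.2.9, RSEM 1.2.30 and the mm10 build, per the submitters' processing notes. The gene annotation is not stated, and the strand setting is not given in the sources used here. The column headed 1 was taken as the anagen sample by its title, and 11 other columns of values were not used. Each of 42392 gene IDs entered a single time, with values that sum to 1000000. Hox genes and lists were matched by symbol, and gene types and positions came from RefSeq on GRCm38.p6, matched by symbol for 32668 IDs and all 39 Hox genes. A gene counted as detected at 1 TPM. Sums, shares, medians, ranks and ratios were computed with Python 3.11.15, pandas 2.3.3 and numpy 2.4.6, and plotted with matplotlib 3.10.9. Only the share and percentile calculations were tested, on made-up cases with known answers built from the levels of this library. Log2 levels carry a pseudocount of 1. No comparison of stages and no test was made, with 1 library.

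The members and lists were chosen with earlier results of these data known. The Hox genes are named by value, as are members of lists of 10 genes or fewer, and the 4 highest and 2 lowest of longer lists; a few genes that this rule names are not reported here. The other noncoding genes, Foxn1, Foxq1, Prrx1 and the runs of paralog numbers 6 to 8 and 10 to 12 were singled out after their values were seen. For marker lists, counts and sums are given. Other detection levels, scalings, pseudocounts and sums were tried.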

Additional observations from a re-analysis of the deposited data

How the results depend on the processing

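The number of Hox genes counted as detected was 25 at 0.5 TPM, 22 at 2 TPM and 17 at 5 TPM, beside 22 at 1 TPM. It was 25 when TPM were rescaled to nuclear protein-coding genes and 24 when rescaled without mitochondrial and the 50 highest genes. The share of all protein-coding genes was 56.0% at 1 TPM and was not computed for these other settings. The counts at those settings therefore describe the Hox genes only. With the highest member of each cluster left out, the shares were 23.8% for Hoxa, 42.2% for Hoxb, 32.4% for Hoxc and 1.59% for Hoxd. With members at 1 TPM or more only, they were 25.8%, 36.3%, 33.6% and 4.28% in the same order. As shares of summed log2(TPM + 1) they were 29.0%, 37.1%, 26.1% and 7.90%, so Hoxa stood above Hoxc there and below it in the other settings. That sum ran over 11 genes for Hoxa and 9 for Hoxc, and by mean log2 level Hoxa was below Hoxc. With the highest member of each class left out, the anterior, central and posterior shares were 12.8%, 78.7% and 8.44%, and with members at 1 TPM or more only 15.9%, 66.8% and 17.3%. Mean log2 levels of Hoxa, Hoxb, Hoxc and Hoxd were 2.19, 3.09, 2.41 and 0.73 with a pseudocount of 1, and 1.21, 2.42, 1.36 and -1.45 with 0.1, in the same order of clusters. Among protein-coding genes at any level, 21 of the 22 detected Hox genes were above the midpoint, and 10 among genes at 1 TPM or more. The 22 were kept by the 1 TPM line, which 56.0% of all protein-coding genes reached. The count of 21 therefore follows largely from that line. Depth is unknown, so values under 1 TPM may rest on few fragments. No paired analysis was possible because 1 library was analysed.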

Other observations

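Genes beside the Hox clusters ranged from 0 to 62.8 TPM. The even-skipped genes Evx1 and Evx2, at the posterior ends of the Hoxa and Hoxd clusters, were listed at 0, like Hoxa13 and Hoxd13. Mtx2, a mitochondrial import gene beside the Hoxd cluster, stood at 62.8 TPM and Lnpk, of the same region, at 8.71 TPM, against 15.3 TPM for the whole cluster. Beside the Hoxa cluster, Hibadh stood at 28.9 TPM and Skap2 at 22.2 TPM. Near the Hoxc cluster, Calcoco1 stood at 28.6 TPM, the heterochromatin gene Cbx5 at 28.4 TPM and Smug1 at 6.06 TPM. Near the Hoxb cluster, Skap1 and Ttll6 were at 0.0977 and 0.00551 TPM, although Hoxb was the cluster with the largest sum. Prac1 was not analysed here.

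Genes that mark position by other means were low. Of 8 genes of the limb and body wall, 2 reached 1 TPM, Lmx1b at 4.52 TPM and Tbx15, a gene of dorsal skin, at 1.37 TPM. Among all protein-coding genes the share was 56.0%. The limb genes Tbx4, Tbx5 and Pitx1 were at 0.024, 0.00882 and 0.0074 TPM, and En1, of ventral skin, at 0.240 TPM. Shox2 and Emx2 stood at 0.398 and 0.220 TPM. Within the Hoxb cluster the noncoding gene Gm53, singled out after its value was seen, stood at 16.4 TPM between Hoxb13, listed at 0, and Hoxb9 at 11.1 TPM.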
